A study of Mus musculus with 2 samples.

Results

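CXC chemokines are small secreted proteins whose first pair of conserved cysteines is separated by a single residue. The 9 members described here, Cxcl1, Cxcl2, Cxcl5, Cxcl9, Cxcl10, Cxcl12, Cxcl13, Cxcl14 and Cxcl16, were the rows with exactly these symbols in the gene tables of both libraries, 9 of 31053 genes. Each is described by the cell class that held its transcripts and by its level after sham surgery and after pressure overload. The study made 2 droplet single-cell RNA libraries with 3′ chemistry, each from the non-cardiomyocytes of hearts of male C57BL6/J wildtype mice, collected 20 days after surgery. In the TAC group the aortic arch had been narrowed by transverse aortic constriction, which loads the left ventricle with pressure; the sham group had surgery without the constriction. Hearts were digested with collagenases and a protease, cardiomyocytes were left to settle, and viable cells were sorted. There was 1 library per group and the labels do not say how many hearts each holds, so no difference between sham and TAC could be tested, and every interval given here covers counting error only.

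Chemokines guide leukocytes along gradients and act through receptors on the moving cell. Members that carry the ELR motif, here Cxcl1, Cxcl2 and Cxcl5, act on Cxcr2 and recruit neutrophils; Cxcl9 and Cxcl10 are induced by interferons and recruit T and NK cells through Cxcr3. Cxcl12 is the homeostatic ligand of Cxcr4 and is scavenged by Ackr3, Cxcl13 draws B cells through Cxcr5, Cxcl16 is made as a membrane protein that binds Cxcr6, and the receptor through which Cxcl14 acts is less settled. Injured hearts are known to draw neutrophils and monocytes in part through such signals from fibroblasts, endothelium and macrophages.

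Of 6 members on mouse chromosome 5 (build GRCm38), Cxcl5 (ENSMUSG00000029371) lies at 90759360-90761624, Cxcl1 (ENSMUSG00000029380) at 90891241-90893115 and Cxcl2 (ENSMUSG00000058427) at 90903871-90905938, all on the plus strand. Cxcl9 (ENSMUSG00000029417, 92321347-92328079) and Cxcl10 (ENSMUSG00000034855, 92346638-92348889) lie close together on the minus strand, and Cxcl13 (ENSMUSG00000023078, 95956951-95961068) lies further along on the plus strand. Cxcl12 (ENSMUSG00000061353) is on chromosome 6 at 117168535-117181367, Cxcl14 (ENSMUSG00000021508) on chromosome 13 at 56288643-56296551 and Cxcl16 (ENSMUSG00000018920) on chromosome 11 at 70453983-70459984. All 9 are annotated as protein-coding.

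Promoters of 7 of the 9 members were found in the RefSeq table (build GRCm38.p6), and the 250 bases before the start are shown for the 4 members whose counts are read below against inducible gene lists. They are printed 5′ to 3′ on the gene's own strand: Cxcl1 from chr5:90890995-90891244 (plus), Cxcl2 from chr5:90903649-90903898 (plus), Cxcl9 from chr5:92328080-92328329 (minus) and Cxcl10 from chr5:92348890-92349139 (minus). Capitals mark matches, on either strand, to the NF-kappaB consensus, the element bound by a factor of inflammatory signalling, and to a GAAA repeat (GAAA, any 2 bases, GAAA), the core of interferon-stimulated response elements.
Cxcl1: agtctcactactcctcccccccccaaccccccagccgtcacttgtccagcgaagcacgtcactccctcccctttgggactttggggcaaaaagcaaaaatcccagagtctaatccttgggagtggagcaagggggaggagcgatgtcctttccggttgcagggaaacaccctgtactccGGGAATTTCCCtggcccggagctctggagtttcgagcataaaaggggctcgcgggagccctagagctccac
Cxcl2: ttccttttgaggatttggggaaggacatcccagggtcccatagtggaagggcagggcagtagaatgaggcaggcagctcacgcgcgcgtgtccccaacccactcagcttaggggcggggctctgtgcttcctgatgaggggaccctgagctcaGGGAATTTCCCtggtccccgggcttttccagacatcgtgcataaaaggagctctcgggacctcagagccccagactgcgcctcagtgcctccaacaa
Cxcl9: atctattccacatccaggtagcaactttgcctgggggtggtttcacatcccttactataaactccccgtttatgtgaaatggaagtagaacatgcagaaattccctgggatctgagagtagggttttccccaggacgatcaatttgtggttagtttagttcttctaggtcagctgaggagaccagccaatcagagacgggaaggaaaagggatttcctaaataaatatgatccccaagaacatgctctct
Cxcl10: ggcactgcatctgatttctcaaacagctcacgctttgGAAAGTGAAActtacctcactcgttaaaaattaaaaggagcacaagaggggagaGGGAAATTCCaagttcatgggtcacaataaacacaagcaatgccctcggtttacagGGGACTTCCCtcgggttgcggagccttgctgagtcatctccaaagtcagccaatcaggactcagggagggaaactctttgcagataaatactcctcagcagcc
The Cxcl1 and Cxcl2 windows share the palindrome GGGAATTTCCC, which gives 2 overlapping matches to the NF-kappaB consensus in each, 71 to 61 bases before the Cxcl1 start and 97 to 87 bases before the Cxcl2 start. These are RefSeq starts, and both windows end inside the gene spans given above. The Cxcl10 window holds 2 separate NF-kappaB matches, GGGAAATTCC and GGGACTTCCC, and 1 match to the GAAA repeat, GAAAGTGAAA, whose first base is 213 bases before the start. No match to either lies in the Cxcl9 window. The Cxcl14 window holds 1 match to the GAAA repeat and none to the NF-kappaB consensus, and the Cxcl12 and Cxcl13 windows hold neither. Over all 32851 promoter windows of this length, 3.9% held the NF-kappaB consensus and 2.98% held the GAAA repeat. A match of letters does not show that a factor binds there.

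After filtering and doublet removal 7894 sham and 7854 TAC cells were kept, with medians of 4881.5 and 11158 unique molecular identifiers (UMIs, each a counted transcript), so the TAC cells were read more deeply. Cells were put into classes by how many markers of a fixed list had a UMI, for example at least 6 of 10 for fibroblast-like cells, which carried a median of 10 in both libraries. Macrophage-like cells, gated at 5 of 10 markers, carried a median of 9. The classes used most were fibroblast-like (6053 sham and 5376 TAC cells), macrophage-like (942 and 694), endothelial-like (136 and 571) and lymphatic endothelial-like (69 and 302). Cells with cardiomyocyte markers were few, 19 and 33. A further 355 sham and 543 TAC cells met the gates of 2 lineages, mostly macrophage with another immune lineage, and entered no class. The libraries shared 15 barcodes. Levels are UMIs per 1000000 UMIs of the class (CPM).

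The members divided by cell class. Fibroblast-like cells held over 95% of the UMIs of Cxcl1, Cxcl5 and Cxcl14 in both libraries: 96.1% and 95.1% for Cxcl1, 95.2% and 95.3% for Cxcl5, and 97.4% and 97.6% for Cxcl14, in the order sham and TAC. Among classes of at least 50 cells, macrophage-like cells had the highest CPM of Cxcl2, Cxcl13 and Cxcl16 in both libraries. For Cxcl12 the highest CPM among these classes was in endothelial-like cells in both libraries. The leading class of Cxcl9 was macrophage-like in sham and endothelial-like in TAC, and that of Cxcl10 was macrophage-like in sham and, through a single cell, lymphatic endothelial-like in TAC. In the plot of levels by class, the leading class of Cxcl1, Cxcl5 and Cxcl14 stands far above the others, while Cxcl12 and Cxcl16 are spread over several classes.

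**Figure D1:**
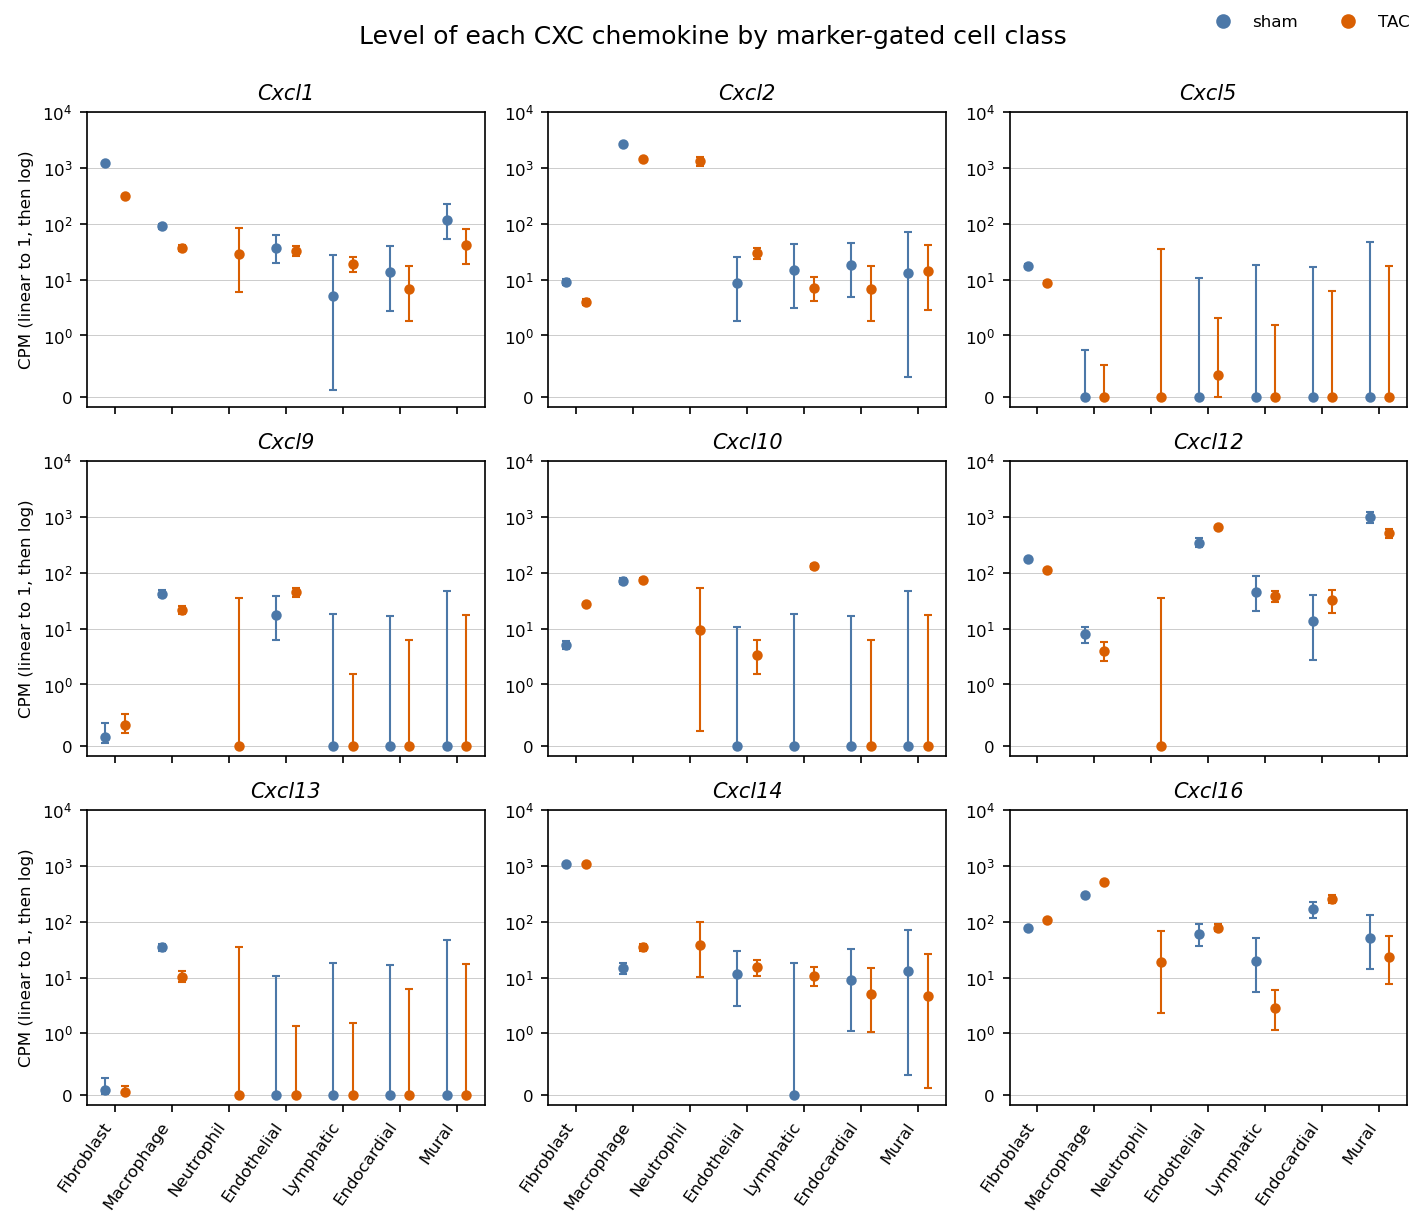
Level of the 9 members (CPM, linear to 1 and logarithmic above) in 7 marker-gated classes of the sham and TAC libraries; points are class sums, bars are 95% Poisson intervals, and classes with under 30 cells in a library are not drawn. Cxcl1 in fibroblast-like cells stands at 1238 CPM in sham and 320 CPM in TAC, and Cxcl2 in macrophage-like cells at 2719 and 1426 CPM.

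Against the sham library, the TAC library was lower for all 3 ELR members in the class that led. The threshold used throughout is a 2-fold difference on the log2(CPM + 1) scale among genes with at least 10 CPM in either library of the class. In fibroblast-like cells 6 members were measured; 1, Cxcl10, was at least 2-fold higher and 1, Cxcl1, at least 2-fold lower in TAC, where 3.05% of 8807 genes were higher and 2.43% lower. In macrophage-like cells 7 were measured, with 1 higher (Cxcl14) and 2 lower (Cxcl1 and Cxcl13), where 3.14% of 8121 genes were higher and 2.06% lower; with cells thinned to equal depth only Cxcl1 of the 3 was past the threshold. In endothelial-like cells 6 were measured, with 2 higher (Cxcl2 and Cxcl9) and 0 lower, where 7.43% of 9248 genes were higher and 9.99% lower. With classes taken from clusters in place of marker gates, 0 endothelial members passed. The median log2 difference of the measured members was -0.31 in fibroblast-like cells, -0.91 in macrophage-like cells and 0.66 in endothelial-like cells, and that of all measured genes was -0.06, -0.04 and -0.11. In lymphatic endothelial-like cells 3 of 6 measured members were higher and 2 lower, where 10.1% of 9424 genes were higher and 10% lower, but each of these 5 rested on 0 to 4 sham UMIs.

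**Figure D2:**
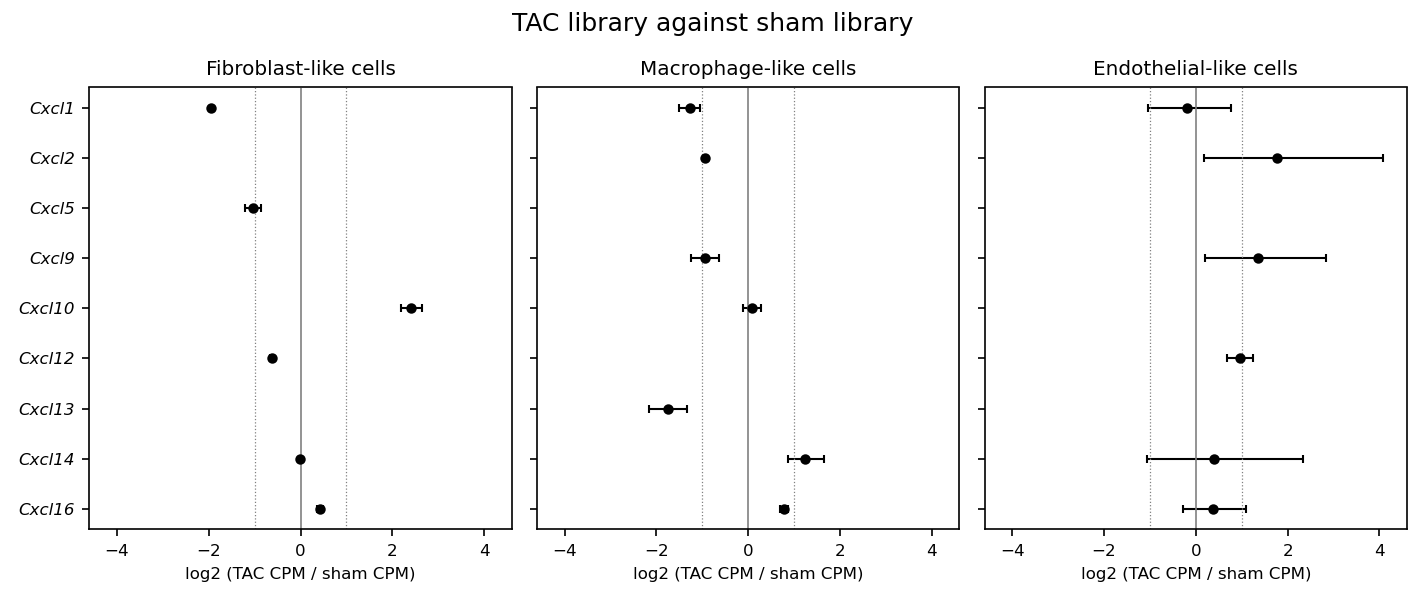
Ratio of TAC to sham CPM (log2) of each member with UMIs in both libraries and at least 10 CPM in either, in 3 classes; bars are exact 95% intervals for counting error and dotted lines mark 2-fold. In fibroblast-like cells Cxcl1 and Cxcl10 lie beyond the dotted lines in opposite directions, and in endothelial-like cells the intervals of Cxcl2 and Cxcl9 are wide.

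Cxcl1, a neutrophil attractant, was at 1238 CPM in sham and 320 CPM in TAC fibroblast-like cells, 3.87-fold lower in TAC (95% interval 3.80 to 3.93; 38676 and 21105 UMIs). Because the TAC cells were deeper, fibroblast-like cells were also compared after drawing 3800 UMIs from each; 1112 cells of sham and 207 of TAC were too shallow for this. At that equal depth 59.7% of sham cells and 30.5% of TAC cells had a Cxcl1 UMI, and the cells with one held 7.86 and 4.08 UMIs on average. Without thinning the shares were 61.4% and 40.9%. At equal depth fewer cells had the transcript and those that did had fewer copies. Inside the activated matrix sub-gate (2 of 4 markers) Cxcl1 was at 426 CPM in sham and 272 CPM in TAC, 1.56-fold lower. Outside it the levels were 1258 and 426 CPM, 2.95-fold lower, so each side differed less than the whole class. The gate held 1.92% of sham and 65% of TAC cells, and depth can raise a share that counts markers. Its markers may themselves differ with TAC, so sham and TAC cells on 1 side of it need not be like cells. Inside and outside the adventitial sub-gate (3 of 4 markers) Cxcl1 was 3.36-fold and 4.09-fold lower. That gate held 18.2% of sham and 9.21% of TAC cells. Dpp4, 1 of its 4 markers, was 14.9-fold lower in TAC fibroblast-like cells, so it did not select alike in the 2 libraries. Macrophage-like cells held 1.07% and 1.17% of the Cxcl1 UMIs. Their level was 89.7 CPM in sham and 37.1 CPM in TAC, 2.42-fold lower (2.07 to 2.84), and was 11.7 and 13.6 times what free RNA from fibroblasts would give, judged by the median level of the fibroblast markers in the same cells. In endothelial-like cells Cxcl1 was at 37.5 and 32.9 CPM, a ratio of 0.88 (0.49 to 1.71), and the free RNA level computed the same way was 30.4 CPM in sham and 5.41 CPM in TAC.

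Cxcl2, also a ligand of Cxcr2, was mainly a macrophage transcript, at 2719 CPM in sham and 1426 CPM in TAC macrophage-like cells, 1.91-fold lower in TAC (1.86 to 1.96). At 3100 UMIs per cell 45.3% of sham and 38.0% of TAC cells had a UMI, with 19.0 and 11.4 UMIs per positive cell. At this depth most cells of the class had no UMI of it and the others had many. The 60 TAC neutrophil-like cells stood at 1304 CPM, with an interval of 1094 to 1543 against 1399 to 1455 in TAC macrophage-like cells, so the 2 classes could not be told apart by counting error; sham had only 4 such cells. Cells that met the gates of 2 lineages held 31% of the sham and 46.9% of the TAC UMIs of Cxcl2, which the class sums do not include. In fibroblast-like cells Cxcl2 was at 9.06 and 4.02 CPM, 1.81 and 1.95 times the free RNA level from macrophages. In endothelial-like cells it rested on 3 sham and 80 TAC UMIs, and 1 TAC cell held 47.5% of the latter.

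Cxcl5, the third ELR member, was found at low level in fibroblast-like cells, at 17.8 CPM in sham and 8.64 CPM in TAC, a CPM ratio of 0.49 (0.43 to 0.55) and a log2(CPM + 1) difference of -0.96, just short of the threshold. It was seen in 246 of 6053 sham cells and 254 of 5376 TAC cells, with 0 UMIs in macrophage-like cells of either library, which allows up to 0.627 and 0.429 CPM there. Cxcl5 and Cxcl1 were found together: in thinned sham cells 78.2% of the 147 cells with Cxcl5 also had Cxcl1, against 59.2% of the 4794 without, and in TAC the shares were 61.3% of 124 and 29.8% of 5045. Cells with Cxcl5 had Cxcl14 in 48.3% and 52.4% against 39.9% and 46.2% of the others, a smaller gap whose intervals overlapped in both libraries. They had Cxcl12 in 48.3% against 38.7% of the others in sham. In TAC the Cxcl12 shares were 44.4% against 27.4%, with intervals that did not overlap, so the pairing was not particular to Cxcl1. In macrophage-like cells Cxcl2 was found in 66.0% of 50 Cxcl1-positive sham cells against 43.8% of 723 others, and in 63.6% of 44 against 36.1% of 612 in TAC.

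Immediate early RNA, a set of rapidly induced transcripts that tissue digestion is known to raise, was also mostly lower in TAC fibroblast-like cells. In fibroblast-like cells 6 of 12 listed immediate early genes were at least 2-fold lower in TAC and 0 higher, with a median log2 difference of -0.91; Atf3 was at 81.2 and 21.8 CPM, Fos at 4925 and 1820 CPM, Jun at 3065 and 1366 CPM and Zfp36 at 675 and 304 CPM. In macrophage-like cells 0 of 12 passed the threshold in either direction, with a median of -0.20. Thinned fibroblast-like cells with Cxcl1 had a median of 102 UMIs of the list in sham, against 66 in cells without, and of 60 against 40 in TAC. At like levels of the list the share of cells with Cxcl1 was lower in the TAC library: between 40 and 59 list UMIs the share was 50.6% of 561 sham cells and 32.7% of 1300 TAC cells, between 60 and 79 it was 58.1% of 716 and 42.4% of 935, and between 80 and 99 it was 64.1% of 772 and 50.8% of 498. Their intervals did not overlap in any of the 5 bins. The bins of 0 to 39 and of 100 and over are wide, and the libraries fill them unequally. At 100 and over stood 41.6% of sham and 5.73% of TAC thinned fibroblast-like cells. Cells in those bins need not be at like levels of the list. For Cxcl2 in macrophage-like cells the intervals of the share overlapped in all 5 bins, with 19.4% to 58.5% of TAC cells and 21.3% to 61.4% of sham cells positive. Mean Cxcl2 UMIs per thinned cell, given without intervals, were lower in TAC in all 5 bins. They were 4.84 in sham and 2.84 in TAC between 40 and 59 list UMIs, and 15.9 and 11.9 at 100 and over. Whether dissociation differed between the libraries was not tested.

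**Figure D3:**
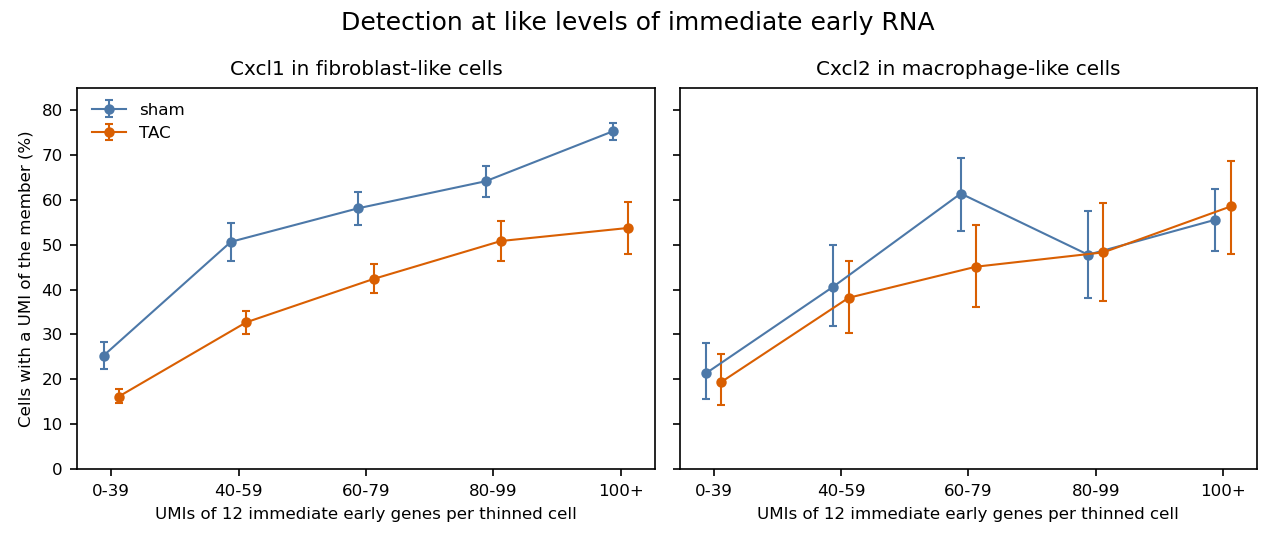
Share of thinned cells with a UMI (%), by the number of UMIs of 12 immediate early genes in the same cell, for Cxcl1 in fibroblast-like and Cxcl2 in macrophage-like cells of the sham and TAC libraries; bars are exact binomial 95% intervals. The sham points of Cxcl1 lie above the TAC points in every bin, 50.6% against 32.7% in the 40 to 59 bin, while the intervals of Cxcl2 overlap. UMIs per cell are not drawn.

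Cxcl9 and Cxcl10, the interferon-induced ligands of Cxcr3, were carried by few cells. Cxcl9 was at 42.0 CPM in sham and 21.9 CPM in TAC macrophage-like cells, but the UMIs came from 9 of 942 and 12 of 694 cells, and 2 sham cells and 1 TAC cell held at least 50% of them. With classes from clusters the macrophage-like log2 difference turned from -0.91 to 0.56, and the leading sham class was then endothelial-like. In endothelial-like cells Cxcl9 was in 61 of 571 TAC cells (10.7%, 8.27 to 13.5), at 44.4 CPM (36.8 to 53.1) against 17.3 CPM (6.36 to 37.7) from 6 sham UMIs. The ratio was 2.57 (1.14 to 7.13). All 6 sham and 120 TAC UMIs lay in cells that passed the capillary sub-gate, which takes 71 of 136 sham and 527 of 571 TAC cells; inside it Cxcl9 was at 39.5 and 49.7 CPM, a ratio of 1.26 (0.56 to 3.5). With classes from clusters the endothelial-like log2 difference was 0.56 in place of 1.31. In TAC, cells of 2 lineages held a further 35.7% of the library's UMIs.

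Cxcl10 was at 71.1 CPM in sham and 75.0 CPM in TAC macrophage-like cells, a ratio of 1.05 (0.92 to 1.21), in 45 and 31 cells. In fibroblast-like cells it was at 5.12 CPM in sham and 27.2 CPM in TAC, 5.32-fold higher (4.52 to 6.29) by counting error. The number of cells did not follow: 66 sham and 63 TAC fibroblast-like cells had a UMI, and 2 TAC cells held at least 50% of the 1797 UMIs, the top one 650. Without the cell with the most UMIs in each library the log2 difference went from 2.21 to 1.72. A single lymphatic endothelial-like TAC cell held 311 of the 315 UMIs that put that class first, at 130 CPM.

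Cxcl10 was higher in cells with interferon-stimulated RNA. The sub-gate for interferon-responding cells asks for at least 3 of 5 interferon-stimulated genes, none of them a member. The gate counts markers, so depth can raise the number of cells that pass. In TAC fibroblast-like cells Cxcl10 was at 241 CPM inside this gate (519 cells) and 0.631 CPM outside, so the gated cells held 97.9% of its UMIs. The level inside rests on few of the gated cells, as most had no Cxcl10 UMI. In sham the levels were 36.9 CPM inside (130 cells) and 4.33 CPM outside, and the gated cells held 17.5% of the UMIs. In macrophage-like cells it was at 606 CPM inside and 43.3 CPM outside in sham, and at 575 and 14.9 CPM in TAC, from 26 and 49 gated cells, which held 42.1% of the sham and 82.3% of the TAC UMIs. Cxcl1 did not separate by this gate, with ratios inside to outside of 1.04 (0.97 to 1.11) in sham and 1.03 (0.98 to 1.07) in TAC fibroblast-like cells. Of 16 listed interferon-gamma response genes, 12 were measured in fibroblast-like cells, with 0 at least 2-fold higher and 2 lower in TAC: Socs1, an inhibitor of cytokine signalling, at 118 and 25.9 CPM, and the transcription factor Irf1 at 80.8 and 21.1 CPM. In macrophage-like cells 0 of 13 passed in either direction.

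**Figure D4:**
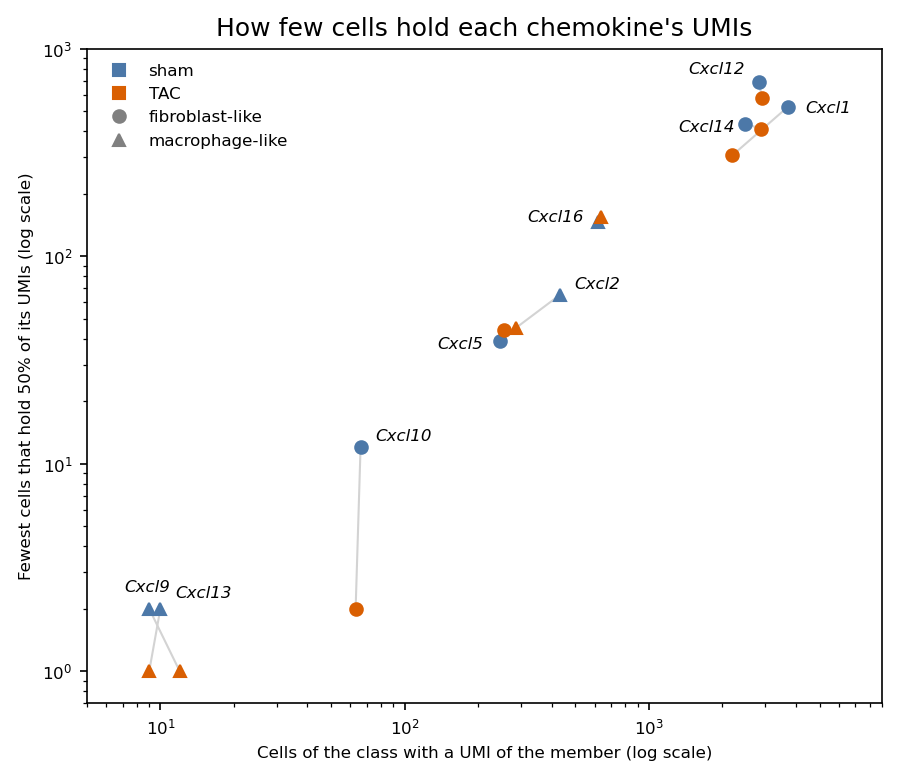
Number of cells of the class with a UMI of each member (log scale) against the smallest number of cells that hold at least 50% of its UMIs (log scale), in fibroblast-like or macrophage-like cells; grey lines join sham and TAC. Cxcl10 keeps 66 and 63 positive fibroblast-like cells while the cells holding 50% of the UMIs number 12 in sham and 2 in TAC, and Cxcl9 and Cxcl13 rest on 1 or 2 macrophage-like cells.

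Cxcl12, which retains leukocytes and patterns vessels through Cxcr4, was found in endothelial-like, mural and fibroblast-like cells. Mural cells (pericytes or smooth muscle) stood at 989 CPM (779 to 1238) in 35 sham cells and 513 CPM (422 to 619) in 54 TAC cells, above endothelial-like cells in sham and below them in TAC. Sham has too few of them for a class comparison under the minimum of 50 cells. Endothelial-like cells stood at 343 CPM (285 to 411) in sham and 667 CPM (637 to 699) in TAC, a ratio of 1.94 (1.61 to 2.36). Fibroblast-like cells went the other way, with 173 and 113 CPM, 1.54-fold lower in TAC (1.48 to 1.59), and with a UMI in 39.0% and 27.8% of thinned cells. Because fibroblasts are many, they still held 92.8% of the sham and 74.7% of the TAC UMIs, and endothelial-like cells 2.04% and 18.1%.

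The endothelial-like difference in Cxcl12 was not the same in all sub-gates of the class, and whether the makeup of the class accounts for it was not tested. Cells passing the capillary sub-gate, 2 of 4 markers, were 71 of 136 in sham and 527 of 571 in TAC; the gate counts markers, so depth can raise that share. Inside it Cxcl12 was at 665 CPM in sham and 728 CPM in TAC, a ratio of 1.09 (0.90 to 1.35). Outside it the levels were 92.5 and 160 CPM, a ratio of 1.73 (0.98 to 3.17). Inside the arterial sub-gate Cxcl12 was at 882 CPM (19 cells) and 2086 CPM (47 cells), a ratio of 2.37 (1.63 to 3.55). Outside the arterial sub-gate it was at 285 and 546 CPM, a ratio of 1.92 (1.55 to 2.40). In TAC the cells passing the arterial sub-gate were thus 3.82 times (3.42 to 4.26) the level of the other endothelial-like cells. The arterial and capillary sub-gates overlap and are not separate parts of the class. In TAC 443 Cxcl12 UMIs lay inside the arterial gate and only 46 outside the capillary gate. Most of the former were therefore in cells that pass both. When classes were taken from clusters the log2 difference of the whole class was 0.35 in place of 0.96, and with the stricter cell filter 1.42.

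Cxcl13, the B-cell attractant, was at 34.9 CPM in sham and 10.4 CPM in TAC macrophage-like cells, 3.34-fold lower by counting error (2.53 to 4.47). The UMIs came from 10 and 9 cells. Of the 167 sham UMIs 166 lay in cells passing the resident macrophage sub-gate, which holds 584 of the 942 cells. In TAC it was 22 of 73, at 6.82 CPM inside and 13.6 CPM outside, a ratio of 0.50 (0.29 to 0.84), and 1 cell held 51 of the 73. In TAC 86.1% of the library's Cxcl13 UMIs were in cells of 2 lineages, and 1 such cell held 363 of 482, so over the whole library the level was 4.18 CPM in sham and 6.16 CPM in TAC, opposite in direction to the macrophage-like class. Thinned to equal depth the class difference was -0.83 in place of -1.65, and without the cell with the most UMIs it was -2.43.

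Cxcl14, a ligand made by stromal and epithelial cells, differed between the libraries by less than counting error, 1083 CPM in sham and 1077 CPM in TAC fibroblast-like cells, a ratio of 0.99 (0.98 to 1.01). At equal depth 40.1% of sham and 46.4% of TAC cells had a UMI, with 10.5 and 9.15 UMIs per positive cell. Within the class it was uneven. Cells passing the adventitial sub-gate, 3 of 4 markers, had 496 CPM against 1244 CPM in the others in sham and 511 against 1149 CPM in TAC, 2.51-fold and 2.25-fold lower. Its marker Dpp4 was 14.9-fold lower in TAC fibroblast-like cells, so this gate did not select alike in the 2 libraries. Cells passing the activated matrix sub-gate, 2 of 4 markers, had 259 CPM in sham (116 cells) and 848 CPM in TAC (3495 cells), against 1103 and 1586 CPM outside. Inside this gate Cxcl14 was thus 3.27-fold higher in TAC than in sham and outside it 1.44-fold higher, while the class as a whole had a ratio of 0.99. The gate held 65% of TAC and 1.92% of sham cells, and as it counts markers, depth can raise that share. The markers may themselves differ with TAC, so sham and TAC cells on 1 side of the gate need not be like cells. In macrophage-like cells Cxcl14 was at 14.6 and 34.8 CPM, which is 2.18 and 3.79 times the free RNA level from fibroblasts, and positive cells held 1.33 and 1.19 UMIs each at equal depth. Its level in the endothelial and endocardial classes was at or below that free RNA level in both libraries.

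Cxcl16, made as a membrane-bound ligand for Cxcr6, was at 304 CPM (289 to 321) in sham and 521 CPM (504 to 538) in TAC macrophage-like cells, 1.71-fold higher (1.61 to 1.82). At equal depth 55.2% and 72.7% of cells had a UMI. Endocardial-like cells came next, at 166 CPM (117 to 229) and 252 CPM (213 to 296), then fibroblast-like cells at 78.8 and 106 CPM and endothelial-like cells at 60.6 and 78.1 CPM; in sham the intervals of the last pair overlapped. The TAC level was 1.52-fold higher (1.05 to 2.24) in endocardial-like and 1.34-fold higher (1.28 to 1.41) in fibroblast-like cells. In endothelial-like cells the ratio was 1.29 (0.82 to 2.13), and its log2 difference of 0.36 turned to -0.18 with the stricter marker gate and was 0.09 at equal depth. Within macrophage-like cells the level was higher in those passing the MHC class II sub-gate, 338 against 191 CPM in sham and 564 against 387 CPM in TAC. It was lower in those passing the resident sub-gate, 235 against 470 CPM in sham and 434 against 596 CPM in TAC. The TAC level exceeded the sham level on both sides of both sub-gates.

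**Figure D5:**
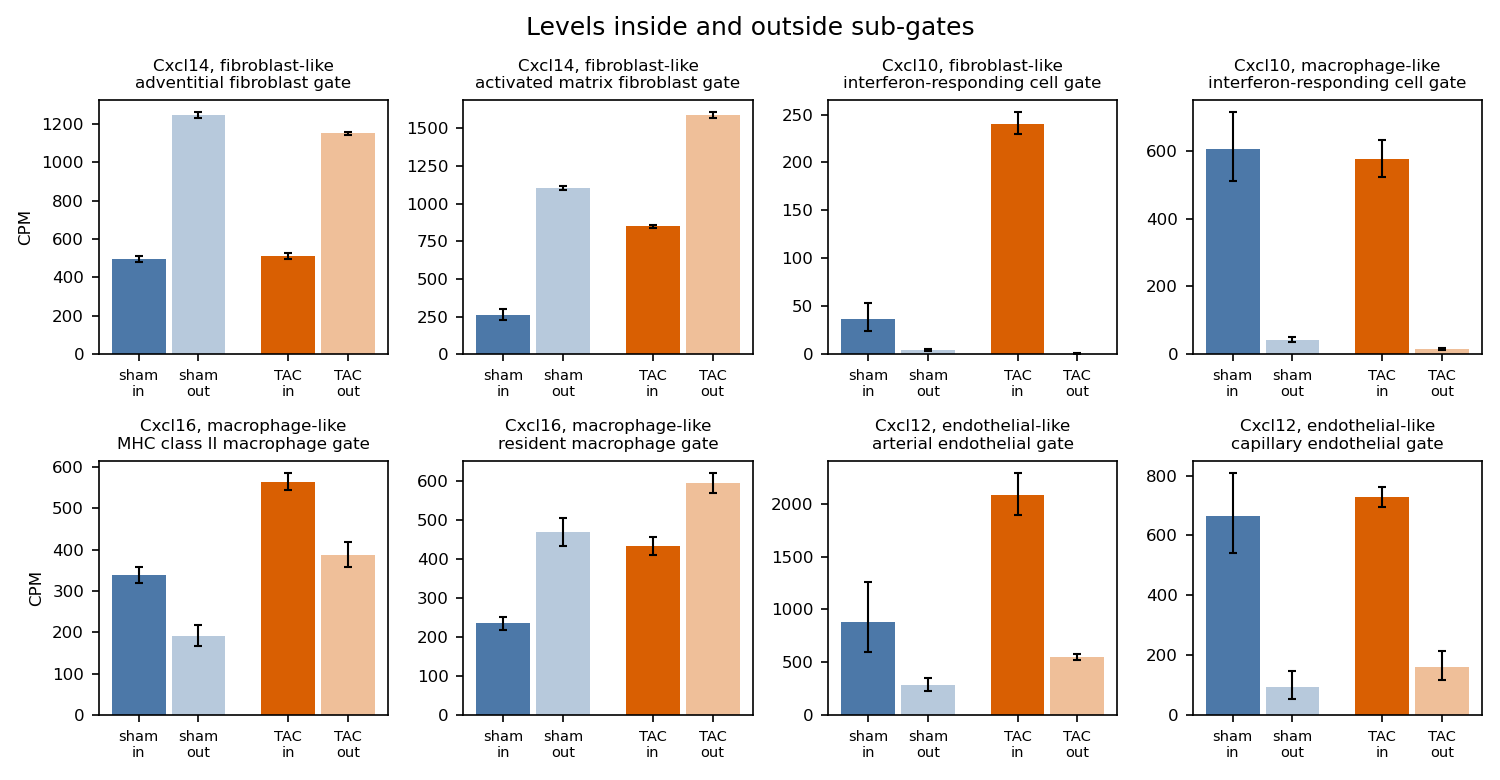
Level (CPM) of 4 members inside and outside marker sub-gates of their classes in the sham and TAC libraries, as bars from 0 with 95% Poisson intervals; each panel has its own scale. Cxcl10 in TAC fibroblast-like cells stands at 241 CPM inside and 0.631 CPM outside the interferon-responding gate, and Cxcl14 is lower inside both fibroblast gates in both libraries.

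Receptors were read in the same classes, but cells that met the gates of 2 lineages held many of their UMIs. In TAC such cells held 552 Cxcr2 UMIs against 153 in neutrophil-like cells, and 269 Cxcr3 UMIs against 36 in T or NK cells. Of Cxcr6 they held 590 UMIs in sham and 574 in TAC, against 230 and 208 in T or NK cells. Of Cxcr4 they held 1116 in TAC, against 662 in macrophage-like cells. The class levels leave these cells out. Cxcr2, the receptor of the ELR members, was at 1467 CPM in TAC neutrophil-like cells, in 50 of 60, and at 0.627 and 3.00 CPM in sham and TAC macrophage-like cells. Cxcr6 was at 1555 CPM in sham and 1137 CPM in TAC T or NK cells (45 and 37 cells), and Cxcr3 at 142 and 197 CPM in the same cells. Cxcr4 was at 36.8 CPM in sham and 94.7 CPM in TAC macrophage-like cells, 2.57-fold higher (2.18 to 3.06), and at 547 CPM in TAC neutrophil-like cells. The Cxcl12 scavenger Ackr3 was at 555 CPM in sham and 84.5 CPM in TAC fibroblast-like cells, 6.57-fold lower in TAC, and at 548 and 328 CPM in endothelial-like cells. Of 8 listed receptors, 1 was measured in fibroblast-like cells and it was lower; 2 were measured in macrophage-like cells, Cxcr3 and Cxcr4, and both were higher.

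Other listed genes of the pathway were counted in the same way. Of 6 other CXC ligands, 5 matched by symbol, and 1 of them was measured in macrophage-like cells: Pf4, a platelet and macrophage chemokine, at 3365 CPM in sham and 1568 CPM in TAC, 2.15-fold lower. Of the proteases that cut CXC ligands, Dpp4, which trims and inactivates Cxcl12, was at 28.7 CPM in sham and 1.93 CPM in TAC fibroblast-like cells, 14.9-fold lower, and was the 1 of 4 measured there to pass. In macrophage-like cells 5 were measured, with Mmp9 lower (27.6 and 2.58 CPM) and Dpp4 (3.56 and 11.0 CPM) and Mmp2 (2.51 and 13.7 CPM) higher. Mmp9 is also a marker of the neutrophil gate. Cells passing both the macrophage and the neutrophil gate, 22 in sham and 152 in TAC, were left out of the class. Whether this bears on the Mmp9 level was not tested. Mmp2 was at 683 and 1248 CPM in fibroblast-like cells, and at the share at which their markers appear in macrophage-like cells this would give 4.23 CPM in sham, above the level measured, and 10.6 CPM in TAC, most of it. Mmp2 is itself 1 of the 10 fibroblast markers that set this share, so the check is not independent. Whether the macrophage-like difference in Mmp2 is a change in expression was not tested. Of 14 NF-kB feedback and target genes, 11 were measured in fibroblast-like cells, with a median log2 difference of 0.33. Past the threshold were Il6, higher (10.9 and 29.6 CPM), and Nfkbiz, lower (294 and 138 CPM). How these genes relate to the level of Cxcl1 was not tested. In macrophage-like cells 0 of 13 passed, with a median of 0.12, and in endothelial-like cells 5 of 13 were higher and 1, Tnfaip3, was lower, where 7.43% and 9.99% of all genes were. Of those 5, Nfkbie, Rel, Tnip1 and Bcl3 rested on 1 to 4 sham UMIs with intervals that include 1, and Icam1 (54.8 and 112 CPM) had a ratio of 2.04 (1.28 to 3.43).

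By Pearson correlation of log2(CPM + 10) over 10 sums (5 classes in 2 libraries), which share depth and the same cells, the genes most like Cxcl1 were Ggt5, Qpct and Vps37d (r of 0.96). Those most like Cxcl2 were Ccl6, Ciita and Il1b (0.99 to 1.00), and those most like Cxcl16 were Slc35c2, Apoe and Akr1b10 (0.92 to 0.94). For Cxcl12 they were Spry4, Jam3 and Tsnax (0.94 to 0.95) and for Cxcl14 Nr4a3, Ptgir and Dpt (0.99). For Cxcl5 they were Has2, Acss3 and Pnmal2, for Cxcl9 Oas2, Pik3r6 and Gm45716, for Cxcl10 Racgap1, Reep5 and Dhrs1, and for Cxcl13 Adgre4, Gm44751 and Trim30c; these 4 members were near 0 in most sums, so likeness says little beyond the class they share.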

How the data were processed

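The deposited files hold raw UMI counts per gene and cell for 2 libraries (42490230 UMIs in sham, 96003109 in TAC), made by the authors; per the file headers the software was Cell Ranger 3.1.0, and the submitters' processing notes name the mm10 build and Seurat, whose output was not used here. Barcodes were kept with at least 500 genes, at least 1000 UMIs and at most 15% of UMIs from mitochondrial genes, which removed 462 in sham and 901 in TAC, and doublets were removed as called per library by Scrublet in Scanpy 1.11.5 (70, or 0.879%, and 146, or 1.82%). Classes come from the number of markers with a UMI; a cell passing the gates of 2 lineages was left out of all classes. Counts were summed per class and library and expressed as CPM, with exact Poisson, binomial (Clopper-Pearson) and conditional ratio intervals (SciPy 1.17.1). A count of 0 was taken to allow up to 3 counts. Class sums with known changes were simulated to check ratios and intervals. With 1 library per group there is no test across replicates. Named genes are the 9 members, up to 4 genes per list by largest log2 ratio and the 3 genes most like each member. The members, marker lists and gene lists were chosen with earlier results of these data known; the cuts within the gates were set after the cells had been seen. Alternatives covered filters, doublets, clusters, a stricter gate, thinning, the pseudocount and the 10 CPM minimum. Of 31053 gene IDs, 30934 were in GENCODE release M21, which gave the coordinates. Promoters come from RefSeq. Cxcl11 was not analysed here.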

Additional observations from a re-analysis of the deposited data

Results flagged for a closer look

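Some members had ratios of TAC to sham on opposite sides of 1 in 2 classes, with counting intervals that both exclude 1; with 1 library per group these differences were not tested. The log2 ratio of Cxcl2 in macrophage-like minus endothelial-like cells was -2.59, that of Cxcl9 in the same classes was -2.22, and that of Cxcl12 in fibroblast-like minus endothelial-like cells was -1.57. With classes from clusters Cxcl9 was at 0.56 in both macrophage-like and endothelial-like cells, so its opposite directions did not hold there, while Cxcl2 was at -0.93 and 0.64. For Cxcl16 the difference was 2.86 between fibroblast-like and lymphatic endothelial-like cells and 3.21 between macrophage-like and lymphatic endothelial-like cells, where the lymphatic level rested on 4 sham and 7 TAC UMIs.

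Cells that met the gates of 2 lineages, which enter no class, held 31% of the sham and 46.9% of the TAC UMIs of Cxcl2, 35.7% of the TAC UMIs of Cxcl9 and 86.1% of the TAC UMIs of Cxcl13. These cells had medians of 8979 UMIs in sham and 15685 in TAC, against 4314 and 8534 in macrophage-like cells, and whether they are doublets was not tested beyond the caller.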

How the results depend on the processing

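The count of members at least 2-fold different was 3 in macrophage-like cells and 1 with cells thinned to equal depth. In endothelial-like cells it was 2, then 0 with classes from clusters, 1 with a stricter gate and 1 with a pseudocount of 10. In lymphatic endothelial-like cells it was 5, then 2 with clusters, 3 with a pseudocount of 10 and 2 without the cell with the most UMIs, an alternative chosen after seeing the data. In fibroblast-like cells it was 2 and stayed within 1.5 times that under the alternatives run. The log2 difference of Cxcl14 in lymphatic endothelial-like cells was 3.56 and became -0.32 with clusters; that of Cxcl9 in macrophage-like cells was -0.91 and became 0.56; the cause was not tested. The leading class held for 17 of 18 member and library pairs with clusters (sham Cxcl9 moved to endothelial-like) and for 17 of 18 without the top cell (TAC Cxcl10 moved to macrophage-like). Keeping doublets, no filter on cells and a pseudocount of 0.1 left all 25 results within their counting error. No paired analysis was possible because each group has 1 library. Depth limits the 69 sham lymphatic and 136 sham endothelial-like cells, where 3 UMIs equal 15.1 and 8.66 CPM.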
